A study of Mus musculus with 16 samples.

Results

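Pan-neuronal proteins and neurofilaments were measured as 10 genes of neurons, chosen by name from the 56748 genes of the count table. The longitudinal muscle with its attached myenteric plexus (LMMP) had been dissected from the proximal and distal colon of WT (Ednrb +/+) mice and of HSCR (Ednrb -/-) mice, and poly-A RNA from it was sequenced in 16 libraries, 4 for each of the 4 groups WT proximal, HSCR proximal, WT distal and HSCR distal. HSCR mice were homozygous for Ednrb tm1Ywa, which disrupts the endothelin B receptor gene in every cell, and they serve as a model of Hirschsprung disease because enteric ganglia are absent from, or sparse in, their distal colon. All mice were bred on a hybrid C57BL6/J-129Sv background and were 2 to 4 weeks old, WT mice were littermates, and no group was treated. The proximal segment of HSCR mice was delimited by its distension, so a segment is a dissection and not a marked cell population. The tissue entry of the 8 distal libraries names the proximal colon, and these libraries were taken as distal from their titles. The labels do not say which libraries came from the same mouse. The library names of replicates 1 and of replicates 2 each share a number across the 4 groups, whose meaning is not given, and those of replicates 3 and 4 share none. Thus the p-values below measure the spread between these libraries.

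Neurons of the myenteric plexus have their cell bodies in ganglia between the muscle layers. Extrinsic sympathetic, parasympathetic and sensory nerves reach the same layer as axons whose cell bodies lie outside the gut wall, and in the aganglionic colon these fibres are known to persist. Elavl2, Elavl3 and Elavl4 encode HuB, HuC and HuD, RNA-binding proteins of the neuronal cell body that stabilise neuronal transcripts. HuC and HuD are the standard marker for counting enteric neurons. The other 7 members encode proteins that fill axons and terminals. Uchl1 encodes the ubiquitin hydrolase PGP9.5, Tubb3 the neuronal beta-tubulin recognised by Tuj1, Nefl and Nefm the light and medium neurofilament subunits, and Prph the intermediate filament peripherin of peripheral neurons. Stmn2 encodes a regulator of microtubules in growing axons and Gap43 a membrane protein of growth cones and regenerating nerve. The mRNA of axonal proteins is made in the cell body, and part of it is carried into axons.

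The members lie on 8 chromosomes of GRCm39 and share little in the 250 bases before their annotated starts. Each promoter was searched on both strands for 4 short sequences and the 2 parts of the RE1 element. The E-box CAGCTG, which neuronal basic helix-loop-helix factors can bind, was in 3 of the 10, against 11.9% of 21757 protein-coding promoters of the same length. They included Elavl3 and Elavl4, where it lay 38 and 46 bases before the start. The CCAAT box was in 5 members against 36.5% of all promoters, the GC box GGGCGG in 5 against 36.3%, and TATAAA in 3 against 11.9%. Neither the left part TTCAGCACC nor the right part GGACAGC of RE1, the element bound by the neuronal repressor REST, was in any member, against 0.267% and 5.57% of all promoters. A match of letters is a description of this window and not a bound site. The 3 Elavl promoters are printed because the Elavl genes parted from each other in the libraries. They run 5' to 3' on the strand of the gene, and capitals mark any match to the 4 short sequences.
Elavl2 promoter, chr4:91264734-91264983, strand -: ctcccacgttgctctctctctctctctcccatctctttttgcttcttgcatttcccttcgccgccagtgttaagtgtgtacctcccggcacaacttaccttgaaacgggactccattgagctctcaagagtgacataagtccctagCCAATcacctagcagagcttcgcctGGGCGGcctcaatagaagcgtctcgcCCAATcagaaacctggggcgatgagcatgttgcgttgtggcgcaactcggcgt
Elavl3 promoter, chr9:21963325-21963574, strand -: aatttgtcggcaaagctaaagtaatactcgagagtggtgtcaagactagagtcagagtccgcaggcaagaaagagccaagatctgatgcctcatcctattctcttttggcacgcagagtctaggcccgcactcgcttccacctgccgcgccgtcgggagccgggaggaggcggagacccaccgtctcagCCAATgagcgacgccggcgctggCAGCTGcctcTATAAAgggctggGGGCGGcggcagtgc
Elavl4 promoter, chr4:110144725-110144974, strand -: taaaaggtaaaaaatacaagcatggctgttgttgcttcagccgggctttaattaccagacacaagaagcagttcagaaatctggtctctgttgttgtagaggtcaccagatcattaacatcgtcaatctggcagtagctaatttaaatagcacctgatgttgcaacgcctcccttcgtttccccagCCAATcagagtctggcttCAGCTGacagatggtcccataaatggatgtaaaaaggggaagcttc
The 3 Elavl promoters share the CCAAT box, which lies 104 and 53 bases before the start in Elavl2, 61 in Elavl3 and 64 in Elavl4, and of the 3 Elavl3 has a TATA box close to the start, at 28 bases.

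Some members share exonic bases with other genes in GENCODE M39. The exons of Nefl overlap an exon of a Nefm transcript on the opposite strand, those of Uchl1 overlap Uchl1os and Gm73557, those of Elavl4 overlap Gm33070, and those of Elavl3 overlap Gm49318 on the same strand. The protocol describes stranded and unstranded libraries without saying which was used, so reads in these overlaps cannot be assigned to 1 gene with certainty. Tubb3 belongs to a family of closely related tubulin genes.

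The libraries held between 21384372 and 45831881 counted reads, and mitochondrial genes took between 4.32% and 49.8% of them. In replicates 1 to 4 this share was 49.8%, 17.8%, 7.31% and 34.6% in WT proximal and 5.56%, 6.68%, 6.34% and 20.1% in HSCR proximal. Its part in the members' levels was not tested. Levels below are CPM, read counts scaled to a common library size, after TMM scaling over all 16 libraries, values are listed in the order of replicates 1 to 4, and each ± is an SD over n = 4 libraries. Ednrb, the disrupted gene, was read at 67.7, 33.9, 64.2 and 53.0 CPM in WT proximal and at 7.85, 12.6, 36.3 and 35.8 CPM in HSCR proximal. It was at 12.2, 16.1, 28.3 and 40.2 CPM in WT distal and at 97.0, 5.55, 5.83 and 9.57 CPM in HSCR distal. Reads from the rest of a disrupted gene are still counted, so this level does not check the genotype, and HSCR distal 1 held the highest of all 16 values. Hoxd13, a gene of the posterior gut, went against the segment labels of the same library and of HSCR proximal 1. It was at 0.904, 15.3, 19.7 and 23.9 CPM in WT proximal and between 112 and 201 CPM in WT distal, whereas HSCR proximal 1 had 125 CPM against 2.49, 0.643 and 1.18 CPM in the other HSCR proximal libraries, and HSCR distal 1 had 0.629 CPM against 115, 210 and 14.1 CPM in the other HSCR distal libraries. HSCR distal 4 also lay below the WT distal range and within the WT proximal range, and it was kept in every fit without HSCR distal 1. All are named below as labelled. The members' fold changes in the genotype comparisons, the HSCR segment comparison and genotype by segment are also given without HSCR proximal 1 or HSCR distal 1, and the gene lists, RUVr calls and group means include them.

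The members were highest in WT proximal colon and spanned a wide range everywhere. Elavl4 was at 31.8, 72.4, 175 and 137 CPM in WT proximal and at 3.07, 4.06, 48.4 and 40.2 CPM in HSCR proximal. In the distal colon it was at 2.54, 22.8, 105 and 73.9 CPM in WT and at 42.2, 0.447, 0.486 and 0.0922 CPM in HSCR. The 3 lowest values of all 16 were thus HSCR distal 2, 3 and 4, with 12, 18 and 4 reads, while HSCR distal 1 was at the level of HSCR proximal 3 and 4. In these bulk samples fewer neurons, less RNA per neuron and a larger share of RNA from other tissue cannot be told apart.

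Elavl3, which encodes HuC, was at 8.06, 43.9, 42.9 and 33.4 CPM in WT proximal, at 0.650, 0, 15.7 and 13.6 CPM in HSCR proximal, at 0, 5.86, 29.5 and 25.6 CPM in WT distal and at 16.1, 1.34, 0.297 and 0.0461 CPM in HSCR distal. No read was found in HSCR proximal 2 or WT distal 1, where 3 reads would have given 0.11 and 0.10 CPM. This floor covers counting error only.

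Elavl2 had the lowest group mean per length in each group, but in HSCR distal Elavl3 exceeded it per length in only 1 of 4 libraries. Elavl2 was at 1.36, 8.48, 10.2 and 5.66 CPM in WT proximal, at 0.250, 0.951, 2.08 and 3.22 CPM in HSCR proximal and at 0.267, 3.29, 4.39 and 5.09 CPM in WT distal. In HSCR distal it was at 1.97, 1.83, 0.971 and 0.438 CPM. The 3 HSCR distal libraries with almost no Elavl4 therefore still held 49, 36 and 19 reads of Elavl2.

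Among the axonal members, Uchl1 had the most reads in 4 of 4 WT proximal libraries, while Prph, Gap43, Nefl, Nefm or Stmn2 exceeded it in some libraries of the other groups. It was at 169, 361, 549 and 595 CPM in WT proximal, at 11.6, 38.2, 181 and 217 CPM in HSCR proximal, at 24.2, 84.4, 298 and 217 CPM in WT distal and at 223, 25.8, 7.45 and 1.98 CPM in HSCR distal. Prph was at 79.8, 162, 508 and 447 CPM in WT proximal and at 7.27, 11.4, 146 and 119 CPM in HSCR proximal. In the distal colon Prph was at 13.0, 39.6, 349 and 234 CPM in WT and at 111, 17.4, 6.23 and 2.51 CPM in HSCR. Both genes were lowest in HSCR distal 4, and their groups overlapped in each comparison. Tubb3 ranged from 46.9 to 366 CPM in WT proximal, from 6.72 to 159 CPM in HSCR proximal, from 4.78 to 208 CPM in WT distal and from 0.484 to 124 CPM in HSCR distal. Stmn2 had group means of 281 ± 176 CPM in WT proximal, 80.6 ± 77.9 CPM in HSCR proximal, 127 ± 113 CPM in WT distal and 49.9 ± 77.4 CPM in HSCR distal.

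The neurofilaments and Gap43 were spread differently. Nefl was at 25.9, 38.2, 106 and 97.1 CPM in WT proximal, 15.3, 4.24, 47.9 and 38.5 CPM in HSCR proximal, 3.54, 8.86, 64.0 and 30.8 CPM in WT distal and 116, 8.09, 1.35 and 2.28 CPM in HSCR distal. Nefm was at 7.91, 7.44, 48.8 and 39.9 CPM in WT proximal, 7.55, 1.06, 22.7 and 17.6 CPM in HSCR proximal, 6.21, 16.2, 25.5 and 21.4 CPM in WT distal and 55.6, 7.23, 2.08 and 6.78 CPM in HSCR distal. The highest value of both neurofilament genes was in HSCR distal 1. Gap43 was at 105, 67.1, 156 and 148 CPM in WT proximal, and at 10.5, 13.0, 61.9 and 55.8 CPM in HSCR proximal. In WT distal it was at 55.8, 93.1, 106 and 65.4 CPM, a spread of 23.3 CPM (SD, n = 4) around 80.0 CPM, and in HSCR distal at 105, 47.9, 2.62 and 2.58 CPM. WT distal 1, where Elavl3 had no read, had a Gap43 level close to that of WT distal 4.

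**Figure D1:**
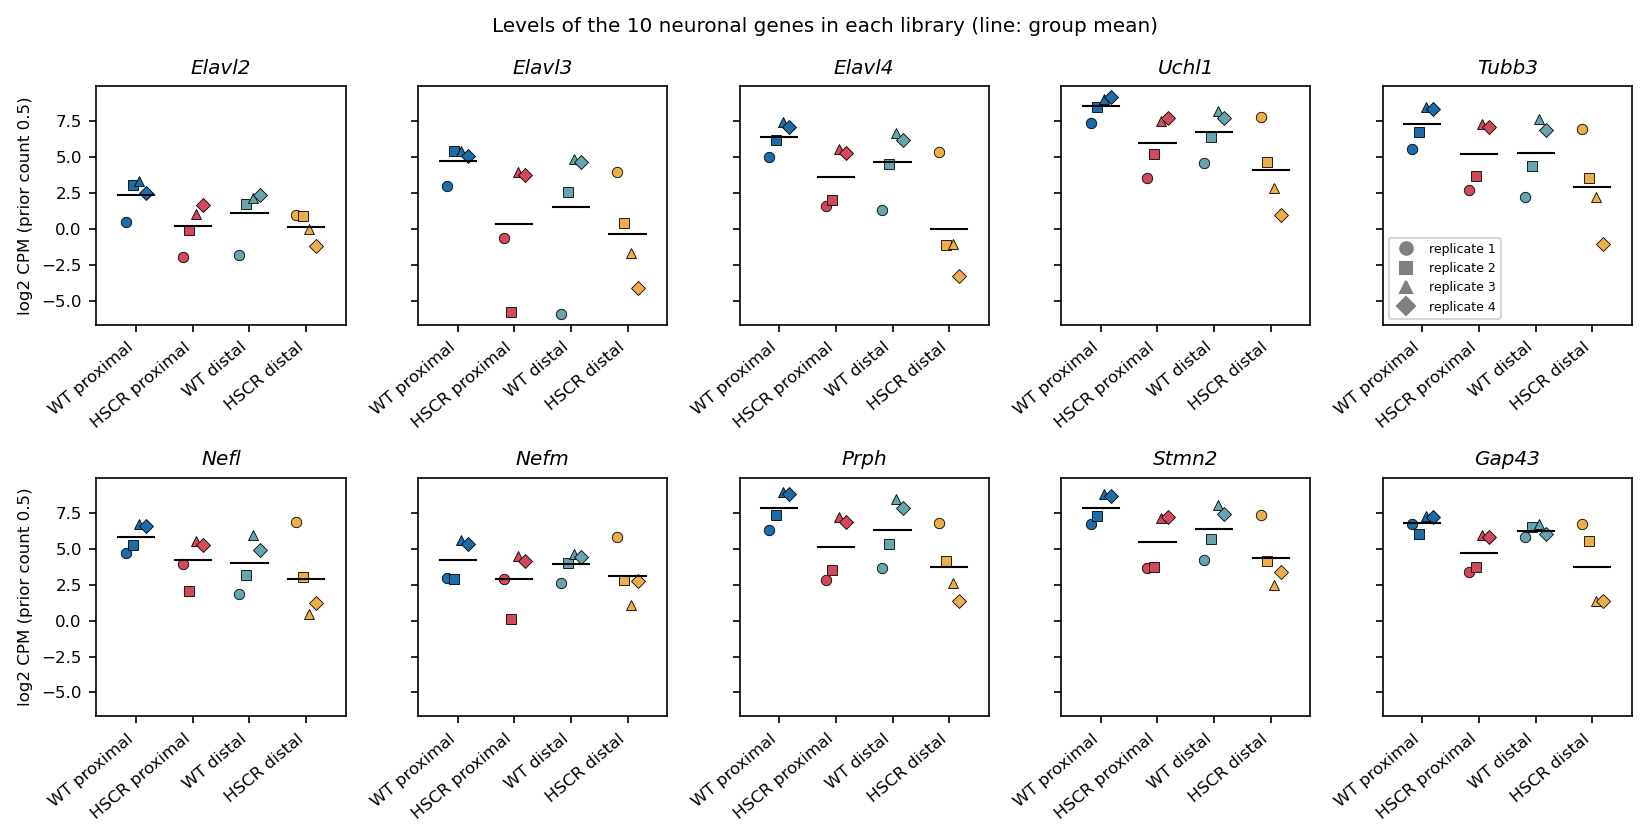
Each panel plots 1 gene, with log2 CPM (prior count 0.5) on the y axis and the 4 groups on the x axis. Points are libraries, the symbol gives the replicate number and the line the group mean; HSCR distal 1 (circle) sits above the other 3 HSCR distal libraries in all 10 panels.

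Levels of different genes were compared per length, as FPKM. In WT proximal colon the order of mean FPKM was Uchl1 (254 ± 118), Prph (148 ± 104), Tubb3 (113 ± 84.3), Gap43 (77.2 ± 26.7), Stmn2 (49.6 ± 31.0), Nefl (19.5 ± 11.8), Elavl4 (19.1 ± 11.7), Elavl3 (4.60 ± 2.40), Nefm (4.44 ± 3.66) and Elavl2 (0.764 ± 0.459). Neighbours in this order overlapped, apart from Nefm and Elavl2. Within a library the order was firmer, since Uchl1 exceeded Prph, Gap43 exceeded Stmn2 and Elavl4 exceeded Elavl3 in 4 of 4 WT proximal libraries, whereas Nefl exceeded Elavl4 in 2 of 4 and Elavl3 exceeded Nefm in 1 of 4. In HSCR distal colon Uchl1 had a mean of 38.6 ± 63.2 FPKM and Gap43 of 25.6 ± 31.1 FPKM, and Uchl1 was the higher in 2 of 4 libraries. Among those was HSCR distal 1, at 133 against 67.1 FPKM, and in HSCR distal 2 Gap43 was higher, at 31.9 against 16.02 FPKM. Nefm, at 3.01 ± 4.24 FPKM, was above Elavl4, at 1.95 ± 3.77 FPKM, in 4 of 4 HSCR distal libraries, while it was below Elavl4 in each of the 4 WT proximal libraries.

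The ratio of reads between members within a library does not depend on how the library was scaled. Per read of Elavl4, Prph had 2.51, 2.24, 2.90 and 3.25 reads in WT proximal, 2.37, 2.82, 3.02 and 2.96 in HSCR proximal and 5.11, 1.74, 3.33 and 3.16 in WT distal. In HSCR distal 1 the ratio was 2.64, within the WT proximal range, and in HSCR distal 2 to 4 it was 39, 12.8 and 27.2. The Prph transcript thus kept a narrow ratio to HuD over a wide range of levels and left it in the 3 libraries with 4 to 18 Elavl4 reads.

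Gap43 did not keep such a ratio. It had 3.29, 0.926, 0.890 and 1.08 reads per Elavl4 read in WT proximal and 3.42, 3.21, 1.28 and 1.39 in HSCR proximal. In WT distal the ratio was 22.0, 4.08, 1.01 and 0.884, and in HSCR distal it was 2.49, 107, 5.39 and 28.0. Against Prph, which has more reads, Gap43 had 4.31 and 2.35 reads per read in WT distal 1 and 2 but 0.303 and 0.280 in WT distal 3 and 4. Replicates 3 and 4, whose library names are of another kind, were below replicates 1 and 2 in this ratio in WT proximal, HSCR proximal and WT distal. In HSCR distal the ratio was 0.944, 2.75, 0.420 and 1.03, so that replicate 4 was above replicate 1.

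Nefm had 0.249, 0.103, 0.278 and 0.291 reads per Elavl4 read in WT proximal and 2.46, 0.261, 0.468 and 0.438 in HSCR proximal. It had 2.45, 0.713, 0.243 and 0.289 in WT distal and 1.32, 16.2, 4.28 and 73.5 in HSCR distal. The 2 neurofilaments also differed from each other, since Nefm had between 0.195 and 0.462 reads per Nefl read in WT proximal, 1.75 and 1.83 in WT distal 1 and 2, and 0.478, 0.894, 1.54 and 2.97 in HSCR distal. Annotated exons of this pair share bases, and how many of their reads fall there was not measured. Nefl against Prph was at 2.10 in HSCR proximal 1 and 1.05 in HSCR distal 1, the 2 libraries whose Hoxd13 level went against their label, at 0.908 in HSCR distal 4, and at 0.132 to 0.325 in the 8 WT libraries.

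The Elavl genes also parted from each other. Elavl4 had 23.4, 8.54, 17.1 and 24.3 reads per Elavl2 read in WT proximal and 12.3, 4.27, 23.3 and 12.5 in HSCR proximal. It had 9.50, 6.93, 23.9 and 14.5 in WT distal and 21.4 in HSCR distal 1. In HSCR distal 2 to 4 the ratio was 0.245, 0.50 and 0.211, so that HuB had more reads than HuD in these 3 libraries and in no other.

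**Figure D2:**
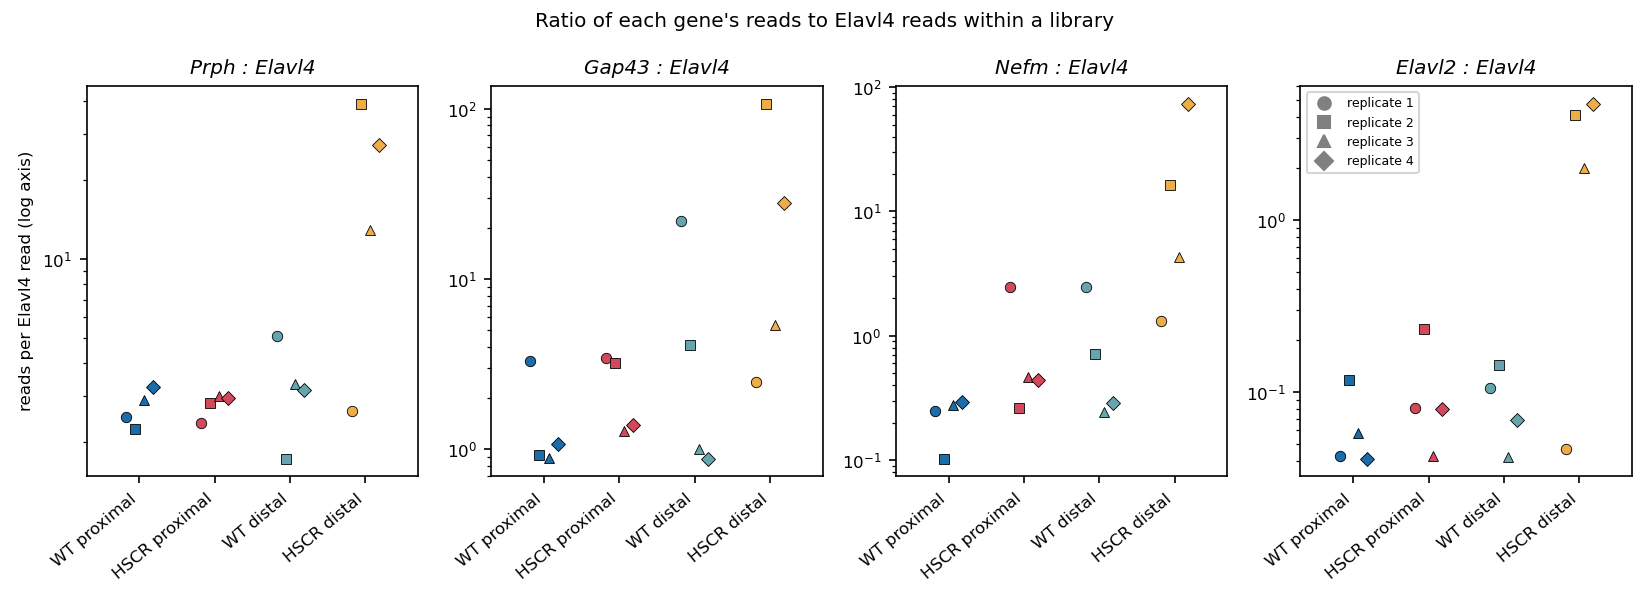
Reads per Elavl4 read (y axis, log scale, different range in each panel) in every library for Prph, Gap43, Nefm and Elavl2, with groups on the x axis and symbols for the replicate. Prph lies between 1.74 and 5.11 in 13 libraries and above 12 in HSCR distal 2 to 4, whereas Gap43 and Nefm also spread within the other groups.

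The mean of the 7 axonal genes minus the mean of the 3 Elavl genes, on the log2 CPM scale, set the classes against each other. It was 2.94, 1.39, 2.45 and 2.85 in WT proximal, 3.60, 4.43, 2.91 and 2.72 in HSCR proximal, 5.70, 2.14, 2.54 and 2.07 in WT distal and 3.43, 3.93, 2.78 and 4.28 in HSCR distal. The group means were 2.41 ± 0.71, 3.42 ± 0.77, 3.11 ± 1.74 and 3.60 ± 0.65 (SD, n = 4). With all 3 Elavl genes every pair of groups overlapped. WT distal 1 had the highest difference, and it and HSCR proximal 2, the highest of its group, rest on an Elavl3 count of 0. Computed from FPKM, the WT proximal mean was 3.64, and without Elavl2 it was 1.33. Without Elavl2 each HSCR distal library lay above each WT proximal library in this difference. In HSCR distal 2 to 4 that rests on few Elavl3 and Elavl4 reads. No p-value was computed for this difference, because the genes of both classes were chosen with earlier results of these data known.

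**Figure D3:**
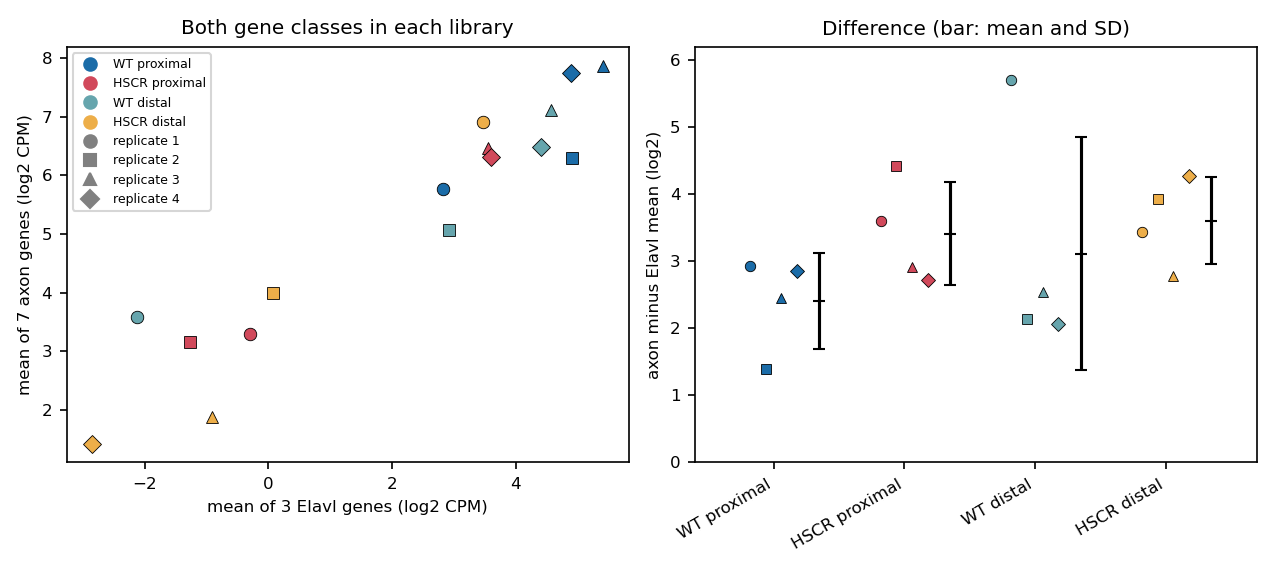
The left panel plots the mean log2 CPM of the 7 axonal genes (y) against that of the 3 Elavl genes (x) in each library, with colours for groups and symbols for replicates, and libraries high in one are high in the other. The right panel plots their difference per library with the group mean and SD, which run from 2.41 in WT proximal to 3.60 in HSCR distal with overlapping points.

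Markers of neurons and nerve were read beside the classes. The 10 markers of intrinsic neurons summed to 272 to 1996 CPM in WT proximal, 44.2 to 2403 CPM in HSCR proximal, 34.0 to 1513 CPM in WT distal and 5.92 to 714 CPM in HSCR distal. The 8 genes used here as markers of extrinsic neurons summed to at most 84.6 CPM in any library, and 0 to 5 of them had no read. Tyrosine hydroxylase (Th), used here as a marker of sympathetic neurons, lay between 0 and 2.49 CPM. Dopamine beta-hydroxylase (Dbh), the enzyme that makes noradrenaline, was at 3.84, 2.95, 42.3 and 62.0 CPM in WT proximal and at 0.450, 1.24, 24.6 and 12.2 CPM in HSCR proximal. It was at 0, 8.25, 41.0 and 38.2 CPM in WT distal and at 4.49, 0, 0.297 and 0 CPM in HSCR distal. Which cells the reads of these 8 genes came from was not tested, so they are not a measure of extrinsic fibres. The 6 markers of myelinating Schwann cells summed to 40.2 to 109 CPM in WT proximal, 21.0 to 82.5 CPM in HSCR proximal, 67.2 to 215 CPM in WT distal and 24.4 to 470 CPM in HSCR distal. The highest of these, 470 CPM, was in HSCR distal 2, the library with 107 Gap43 reads per Elavl4 read, and there Mbp was at 276 CPM. Their part in the axonal levels was not tested.

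Genes outside the 10 with the profile most like the mean of the members were found among 18619 genes, by the root mean square difference of centred log2 CPM over the 16 libraries. The nearest were Kif5c (0.26), a neuronal kinesin motor, Syn1 (0.44), a protein of synaptic vesicles, Crmp1 (0.49), a cytosolic protein of growth cone signalling, Dner (0.51), a neuronal transmembrane protein, and Add2 (0.53), a spectrin-binding adducin. The median over all genes was 2.36. Of the members, Prph (0.41), Stmn2 (0.46) and Uchl1 (0.57) lay nearest to the mean of the 10, and Elavl3 (2.05), Nefm (1.32), Elavl4 (1.31) and Elavl2 (1.17) farthest. Kif5c was between 27.1 and 117 CPM in WT proximal and at 3.25, 3.51, 53.6 and 43.1 CPM in HSCR proximal, 2.34, 21.9, 69.1 and 58.7 CPM in WT distal and 32.7, 6.93, 1.70 and 0.853 CPM in HSCR distal.

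The first comparison asked how the proximal colon of HSCR mice, which has ganglia, differs from that of WT mice. All 10 members were lower in HSCR proximal than in WT proximal, by log2 fold changes between -2.15 for Elavl4 and -1.12 for Nefm, against a median of 0.04 over all genes tested. None passed the test (edgeR quasi-likelihood test, Benjamini-Hochberg adjusted p between 0.747 and 0.820), and of 16664 genes 0 (0%) did, while 414 were higher and 689 lower at an unadjusted p under 0.05 and DESeq2 called 190. The largest log2 fold changes were those of Elavl4 (-2.15, SE 0.95), Elavl3 (-2.12, SE 1.36) and Prph (-2.10, SE 1.01), followed by Elavl2 (-2.01, SE 0.87) and Uchl1 (-1.93, SE 0.84). Stmn2 (-1.83, SE 0.91), Gap43 (-1.77, SE 0.62), Tubb3 (-1.47, SE 1.03), Nefl (-1.36, SE 0.74) and Nefm (-1.12, SE 0.92) were closer to 0. At an unadjusted p under 0.05, 4 members were lower (Elavl2, Elavl4, Uchl1 and Gap43, p between 0.0193 and 0.0492), as were 4.13% of all genes. Without HSCR proximal 1, whose Hoxd13 level went against its label, all 10 were still lower, by 0.92 to 1.76, and 1 (Gap43) had an unadjusted p under 0.05, against 2.92% of genes.

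Gap43 was the member whose groups did not overlap, with 67.1 to 156 CPM in WT proximal against 10.5 to 61.9 CPM in HSCR proximal, where 2.83% of genes had HSCR entirely lower. The same held for Gap43 and no other member without HSCR proximal 1, against 4.11% of genes. Within the kinds of library name 2 libraries were set against 2, where more genes of any kind were separated. Among replicates 1 and 2 the HSCR proximal libraries were entirely below the WT proximal libraries for 9 of 10 members, all but Nefm, against 13.9% of genes. Among replicates 3 and 4 this was so for 10 of 10 members, against 23.7% of genes, and in both kinds at once for 9 of 10, against 6.59% of genes. The difference of mean log2 CPM had a median over the members of -3.10 among replicates 1 and 2 and of -1.45 among replicates 3 and 4. With the kind of name as a term in the fit, the log2 fold changes were -2.86 (SE 0.52) for Elavl4, -2.80 (SE 0.49) for Prph, -2.45 (SE 0.42) for Stmn2 and -2.14 (SE 0.37) for Gap43, and the smallest adjusted p of any member was 0.101.

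Removing 4 factors of unwanted variation (RUVr) before edgeR's likelihood ratio test, as in the methods of the study, changed these calls. It called all 10 members lower at an adjusted p between 2.69e-15 and 0.0054, with log2 fold changes between -4.01 for Elavl3 and -1.21 for Nefm, and it called 9.55% of genes lower. With 8 libraries, the 4 factors and the 2 group means left 2 residual degrees of freedom. DESeq2 and the likelihood ratio test without factors called none of the 10, with smallest adjusted p of 0.172 and 0.331.

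**Figure D4:**
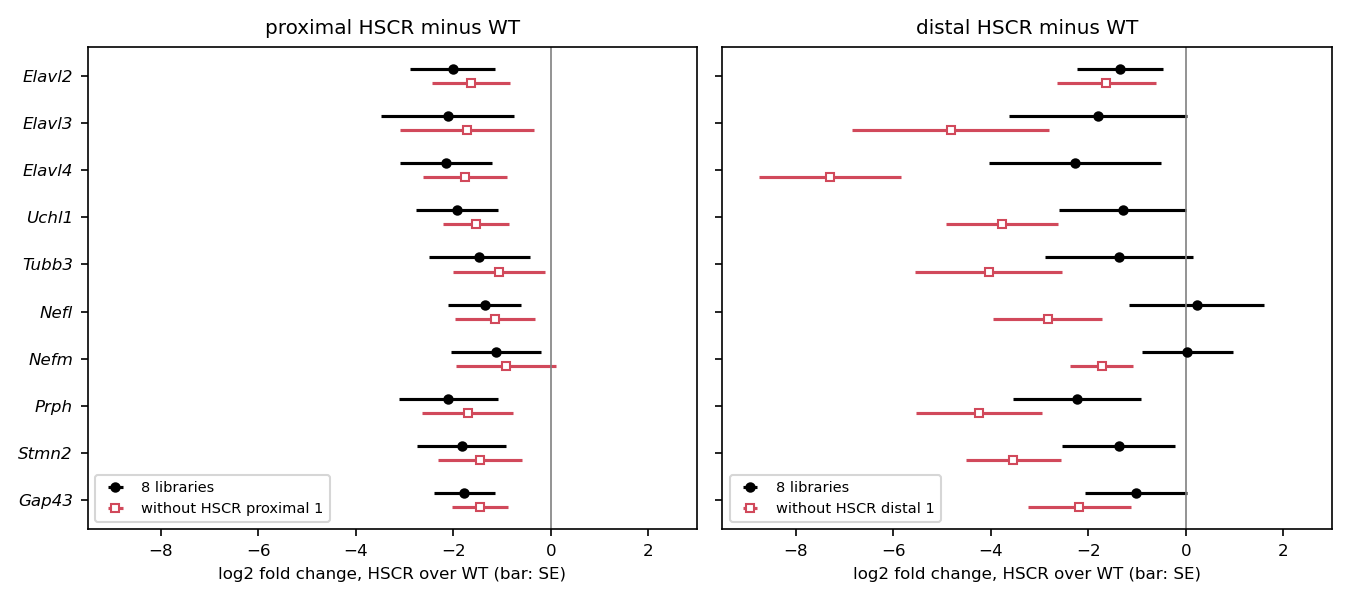
Log2 fold changes of HSCR over WT with their SE (x axis) for each gene (y axis) in the proximal (left) and distal colon (right), with all 8 libraries (black) and without the 1 library whose Hoxd13 level went against its label (red squares). In the distal colon Elavl4 moved from -2.26 to -7.29, and in the proximal colon the values stayed close, with Tubb3 at -1.47 and -1.06.

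Other genes of the same families and of neurons at large were read in the same comparison. Of 15 relatives of the members, 10 were lower and 5 higher in HSCR proximal, with a median of -0.58. The lowest were the neuronal intermediate filaments Ina (-2.61, SE 1.06) and Nefh (-2.30, SE 1.35) and the neuronal stathmin Stmn4 (-2.18, SE 0.92). The widely expressed relatives lay near 0, with Elavl1 at -0.19 (SE 0.27), Tubb5 at 0.15 (SE 0.45), Vim at 0.02 (SE 0.60), Uchl3 at 0.50 (SE 0.52) and Stmn1 at -0.58 (SE 0.56). Of 15 other pan-neuronal genes 15 were lower, with a median of -1.69. Syt1 (-2.63, SE 1.13) and Snap25 (-2.35, SE 1.03), of the vesicle fusion machinery, and Rtn1 (-2.20, SE 1.05) were lowest, and Dpysl3 (-0.12, SE 0.57), Thy1 (-0.43, SE 0.58) and Map1b (-0.72, SE 0.84) were closest to 0. None of these genes passed the test.

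Of the 10 markers of intrinsic neurons 9 were lower, with a median of -2.66, and none passed the test. They included Nmu (-5.19, SE 1.54), a neuropeptide, Chat (-4.06, SE 1.71) and Slc18a3 (-3.93, SE 1.39), the enzyme and the vesicular transporter of acetylcholine. Vip (1.83, SE 1.5), a peptide of inhibitory motor neurons, had a positive estimate that came from HSCR proximal 3 and 4, as it was at 6.62, 18.9, 1607 and 871 CPM in HSCR proximal against 14.9, 90.2, 217 and 367 CPM in WT proximal. Of the 8 genes used as extrinsic markers 4 had enough reads to be tested, Avil (-4.82, SE 1.28), Th (-1.85, SE 1.43), Dbh (-1.56, SE 1.31) and P2rx3 (1.56, SE 1.93). Of the 6 myelin markers 4 were higher and 1 lower. Of the enteric glia markers 7 of 8 were lower, with a median of -1.54, and their sum was 363 to 860 CPM in WT proximal and 79.3 to 398 CPM in HSCR proximal. Markers of the epithelium, which the dissection should remove, summed to 15.3 to 3473 CPM in WT proximal and 182 to 14027 CPM in HSCR proximal, with 8 of 8 higher and a median of 2.90. The highest sum, 14027 CPM, was in HSCR proximal 2, which also had the lowest level of smooth muscle markers. The 4 adipocyte markers summed to 10.3 to 207 CPM in WT proximal and 0 to 3.90 CPM in HSCR proximal. Whether these differences in tissue content had a part in the members' levels was not tested.

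The distal comparison set the distal colon of HSCR mice against that of WT mice. Over all 8 libraries 8 of the 10 members were lower in HSCR and none passed the test (adjusted p 1.00 for all 10). Of 17059 genes 0 (0%) passed, while 150 were higher and 300 lower at an unadjusted p under 0.05 and DESeq2 called 22. Elavl4 had a log2 fold change of -2.26 (SE 1.76) and Prph of -2.24 (SE 1.31), while Nefl was at 0.23 (SE 1.39) and Nefm at 0.03 (SE 0.93). No member was lower at an unadjusted p under 0.05, against 1.76% of genes, and no member was entirely lower in HSCR, against 1.04%. Each of these values includes HSCR distal 1, whose Elavl4 level lay within the HSCR proximal range and whose Hoxd13 level was 0.629 CPM.

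Without HSCR distal 1 all 10 members were lower, with a median log2 fold change of -3.65. Elavl4 was at -7.29 (SE 1.45), Elavl3 at -4.82 (SE 2.01), Prph at -4.23 (SE 1.30), Tubb3 at -4.04 (SE 1.51), Uchl1 at -3.77 (SE 1.15) and Stmn2 at -3.53 (SE 0.97). Nefl was at -2.82 (SE 1.12), Gap43 at -2.18 (SE 1.06), Nefm at -1.72 (SE 0.65) and Elavl2 at -1.63 (SE 1.01). HuD was thus lowest, and Gap43, Nefm and Elavl2 were nearest to 0. None passed the test, with a smallest adjusted p of 0.813, and 8 members were lower at an unadjusted p under 0.05, against 4.13% of genes. Elavl4, Stmn2 and Gap43 were entirely lower in the 3 remaining HSCR distal libraries, against 3.28% of genes.

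Within the kinds of library name, none of the 10 members was entirely lower in HSCR distal among replicates 1 and 2, where 15.4% of genes were, and 10 of 10 were among replicates 3 and 4, where 19.6% of genes were. In both kinds at once none was, against 2.71% of genes. The median difference of mean log2 CPM over the members was 0.97 among replicates 1 and 2 and -5.52 among replicates 3 and 4. RUVr with the likelihood ratio test called 7 members lower (Elavl4, Uchl1, Tubb3, Nefl, Prph, Stmn2 and Gap43), against 5.52% of genes, with adjusted p between 4.55e-11 and 0.0477. Its log2 fold changes included -4.56 for Elavl4, -2.56 for Gap43 and -1.11 for Nefl, which was at 0.23 without the factors. DESeq2 and the likelihood ratio test without factors called none of the 10.

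**Figure D5:**
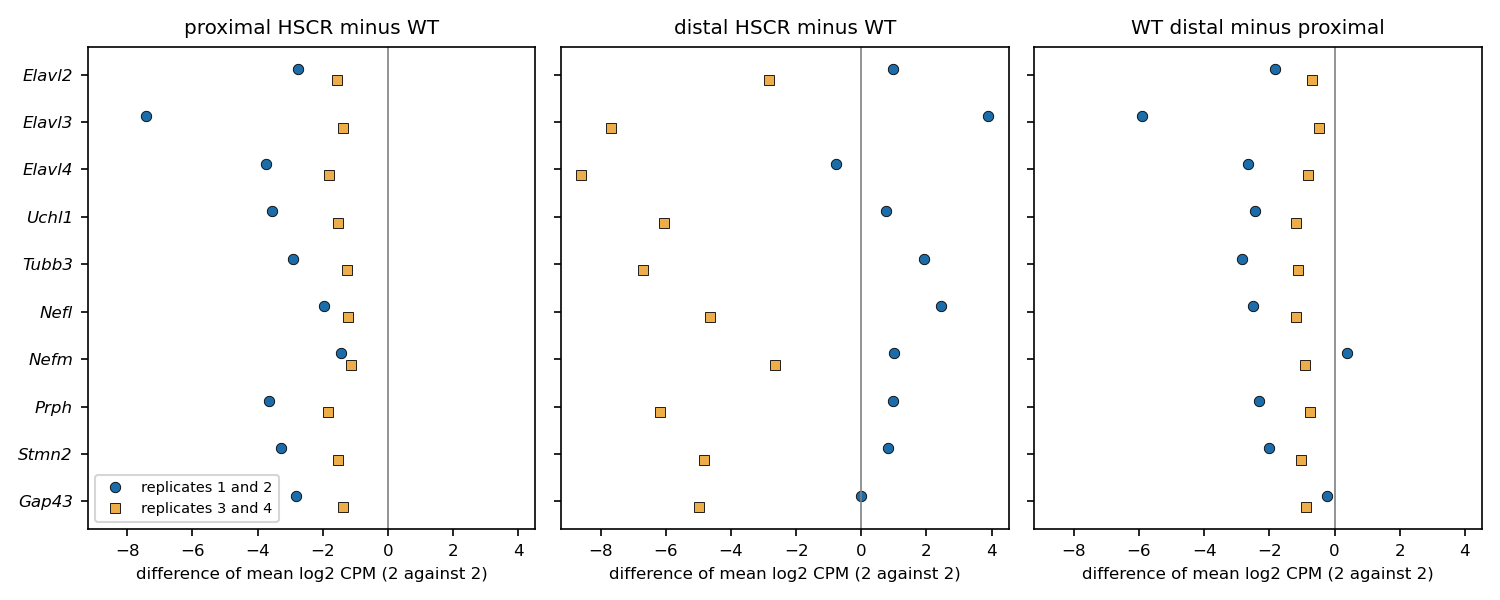
Difference of mean log2 CPM (x axis, 2 libraries against 2) for each gene (y axis) within replicates 1 and 2 (circles) and within replicates 3 and 4 (squares), for the proximal genotype, distal genotype and WT segment comparisons. Both kinds lie below 0 for all 10 genes on the left, and they lie on opposite sides of 0 for most genes in the middle, where replicates 1 and 2 include HSCR distal 1.

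Of the relatives, other pan-neuronal genes and markers in the distal comparison, Nefh (-2.62, SE 1.90), Ina (-2.02, SE 2.03) and Stmn3 (-1.12, SE 1.40) were the lowest relatives, and Elavl1 (0.06, SE 0.24), Vim (0.30, SE 0.46) and Tubb5 (0.30, SE 0.46) lay near 0. Of 15 other pan-neuronal genes 14 were lower, from Snap25 (-2.76, SE 1.34), Syt1 (-2.45, SE 1.85) and Mapt (-2.31, SE 1.08) to Dpysl3 (0.03, SE 0.42). Of the 10 intrinsic markers 9 were tested and 9 were lower, with a median of -2.25. Of the genes used as extrinsic markers 3 were tested, Dbh (-4.21, SE 2.13), Avil (-3.18, SE 1.37) and P2rx3 (1.5, SE 1.52). Which cells their reads came from was not tested. Of the 6 myelin markers 5 were tested and higher, with a median of 0.46. Glia markers summed to 150 to 565 CPM in WT distal and 58.3 to 298 CPM in HSCR distal, and epithelial markers to 98.5 to 1951 CPM and 98.8 to 4609 CPM. None of these genes passed the test.

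Between the segments of WT mice all 10 members were lower in the distal colon, by 0.55 (Gap43) to 1.40 (Uchl1) on the log2 scale. The log2 fold change was -1.40 (SE 0.69) for Uchl1, -1.29 (SE 0.82) for Nefl, -1.24 (SE 1.02) for Tubb3 and -1.01 (SE 0.90) for Elavl4. Those of Nefm (-0.57, SE 0.68) and Gap43 (-0.55, SE 0.33) were closest to 0. None passed the test (adjusted p between 0.906 and 0.942). Of 16566 genes 3 passed (0.0181%), Tnnt2, Pitx1 and A630023A22Rik, which are named after their values were seen. Within the kinds of library name 7 of 10 members (Elavl3, Elavl4, Uchl1, Tubb3, Nefl, Prph and Stmn2) were entirely lower in WT distal among replicates 1 and 2, against 19.6% of genes, and 10 of 10 among replicates 3 and 4, against 28% of genes. Those 7 were entirely lower in both kinds, against 8.16% of genes. Among replicates 3 and 4 the WT proximal names begin with CM and the WT distal names with LC, so in these libraries the segment and the name prefix cannot be told apart. RUVr with the likelihood ratio test called 9 members lower, all but Nefm, against 10.1% of genes. The comparison shares the WT libraries with the genotype comparisons.

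Between the segments of HSCR mice 7 members were lower and 3 (Nefl, Nefm and Gap43) higher in the distal colon over the 8 libraries, and none passed the test, as was so of 17086 genes (0%), while 121 were higher and 133 lower at an unadjusted p under 0.05 and DESeq2 called 5. Without HSCR proximal 1 and HSCR distal 1 all 10 were lower, from -6.55 (SE 1.21) for Elavl4 to -0.98 (SE 0.86) for Elavl2, and 6 had an unadjusted p under 0.05, against 3.14% of genes. Elavl4, Uchl1 and Tubb3 were then entirely lower in HSCR distal, against 5.66% of genes. Gap43, at -1.31 (SE 1.25), and Nefm, at -1.40 (SE 1.05), were with Elavl2 the nearest to 0. With RUVr and the likelihood ratio test over all 8 libraries Elavl4 was called lower, against 1.7% of genes.

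The change of the genotype difference from the proximal to the distal colon was tested in 1 model over the 16 libraries. None of the 10 members passed, as was so of 18619 genes (0%), while 112 were higher and 157 lower at an unadjusted p under 0.05 and DESeq2 called 6. In simulated counts at a dispersion of 0.5 this test found 2 of 199 changes. The members' estimates lay between -0.13 (SE 1.69) for Prph and 1.59 (SE 1.68) for Nefl. Without HSCR proximal 1 and HSCR distal 1 the estimate for Elavl4 was -5.52 (SE 1.56), with an unadjusted p of 0.00344 and an adjusted p of 1.00, and that of Elavl2 was -0.01 (SE 1.08).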

How the data were processed

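RNA from the longitudinal muscle with its myenteric plexus was measured in 16 libraries. Per the labels and the methods of the study, the authors used HISAT2 2.2.1 for alignment to mm39 and featureCounts 2.0.6 for gene-level counts. Raw read counts and FPKM values per library were deposited, and the FPKM, per length and library, were used only to compare levels between genes. The deposited log2 fold changes and p-values of the authors' own comparisons were not used. Whether counting used strand is not given in the sources used here.

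Of 56748 genes, 23907 had no count in any library. CPM were scaled by TMM over all 16 libraries, and log2 CPM used a prior count of 0.5. The 5 comparisons used edgeR 4.0.16 (R 4.3.3) with filterByExpr, TMM and the quasi-likelihood test, on the 8 libraries compared or, for genotype by segment, on all 16. Adjusted p-values are Benjamini-Hochberg over all genes tested, and a gene passed at an adjusted p under 0.05. An SE is the log2 fold change divided by the square root of its F statistic. The script was tested on simulated counts. At a dispersion (spread between libraries) of 0.05 the quasi-likelihood test found 199 of 199 changes in the proximal comparison. In genotype by segment it found 198 of 199. At a dispersion of 0.5 it found 93 of 195 and 2 of 199, so genes that did not pass may still differ. The square root of the common dispersion was 0.715 and 0.794 in these 2 comparisons of the data. Alternatives were DESeq2 1.42.0, the likelihood ratio test with and without 4 RUVr factors, other scalings and filters, a term for the kind of library name (replicates 1 and 2 against replicates 3 and 4), a replicate block, and leaving out each library. HSCR proximal 1 and HSCR distal 1 were also left out together. The members, the gene lists and this last alternative were chosen with earlier results of these data known. Named genes are the 10 members, Ednrb, Hoxd13, the widely expressed relative of each family, genes among the 3 largest and 3 smallest values of a list, and the 5 genes with the profile most like the mean of the members. Mbp is a marker of a list used. Tnnt2, Pitx1 and A630023A22Rik were named after their values were seen. Some items are not reported here. Promoter sequences came from the GRCm39 assembly, before the canonical transcript starts of GENCODE M39, in which all 10 members matched by gene identifier. Figures were drawn with matplotlib 3.10.9.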

Additional observations from a re-analysis of the deposited data

Results flagged for a closer look

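Of 44 groups of 4 libraries examined, 3 held a library far from the other 3, and chance alone gives about 1 in 20. Elavl2 in WT distal 1 was at -1.82 log2 CPM, and the nearest other WT distal library was at 1.72. Elavl3 in WT proximal 1 was at 3.02 log2 CPM, and the nearest other WT proximal library was at 5.06. The difference between axonal and Elavl genes in WT distal 1 was 5.70 log2 CPM, and the nearest other WT distal library was at 2.54.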

How the results depend on the processing

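Numbers of genes passing the test depended most on the method. In the proximal comparison, where the quasi-likelihood test called 0, DESeq2 called 190 genes, the likelihood ratio test 69, RUVr with that test 3462 and the fit with a term for the kind of library name 4. In the distal comparison the first 3 of these called 22, 7 and 1544, between the WT segments 48, 32 and 3186, and in genotype by segment 6, 3 and 312. Between the HSCR segments DESeq2 called 5 and RUVr 358. Between the WT segments the 3 calls became 1 with the replicate block, 0 in the fit of all 16 libraries and 0 to 2 when 1 library was left out. Leaving out any of WT proximal 1, 3 or 4 or WT distal 2, 3 or 4 gave 0.

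Of the members' log2 fold changes over all alternatives, 934 kept their direction and their side of the threshold, 26 kept their direction and passed it, all with RUVr, and 78 changed direction, of which distal Nefl with RUVr also passed. In the distal comparison Nefl became -1.11 with RUVr, -1.70 with the block and -0.69 with the name term, and lay between -2.82 and 1.15 with 1 library left out. Nefm became -0.81, -1.12 and -0.47 in the same settings and lay between -1.72 and 0.41 with 1 library left out. Between the HSCR segments Elavl2 became 0.029 with RUVr (-0.70 to 0.24 with 1 library left out). Nefl became -1.35 with RUVr, -1.42 with the block, -0.95 with the name term and -2.98 without HSCR proximal 1 and HSCR distal 1 (-2.79 to 0.72 with 1 left out). Gap43 became -1.06, -1.0, -0.89 and -1.31 in these settings (-1.01 to 0.58), and Nefm -1.40 without both libraries (-1.22 to 1.02). In genotype by segment, leaving out both libraries gave -0.0088 for Elavl2, -3.12 for Elavl3, -2.25 for Uchl1, -2.97 for Tubb3, -1.68 for Nefl, -0.81 for Nefm, -2.08 for Stmn2 and -0.75 for Gap43. RUVr gave -0.72 for Uchl1, -0.64 for Tubb3, -0.10 for Stmn2 and -0.73 for Gap43, the name term 1.53 for Elavl4 and 1.96 for Prph, and the block 1.56 for Prph. With 1 library left out these estimates lay between -2.73 and 0.91 for Elavl3, -5.16 and 0.50 for Elavl4, -1.87 and 1.16 for Uchl1, -2.59 and 0.94 for Tubb3, -1.49 and 2.47 for Nefl, -0.64 and 1.57 for Nefm, -2.15 and 0.60 for Prph, -1.73 and 1.09 for Stmn2 and -0.45 and 1.12 for Gap43. The cause was not tested. The WT proximal difference between axonal and Elavl genes, 2.41, became 3.64 from FPKM and 1.33 without Elavl2.

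The replicate numbers were not taken as pairs. The correlations of same-numbered deviations ran from -0.12 to 0.24 in the proximal comparison, from -0.21 to 0.41 in the distal comparison, from 0.10 to 0.44 between the WT segments, where replicate 2 was at 0.0997, and from 0.00064 to 0.36 between the HSCR segments, and in none did every library correlate best with its own number. The library names of replicates 1 and 2 carry a number that the groups share, and those of replicates 3 and 4 do not. With the replicate block 9 members of the proximal comparison were lower at an unadjusted p under 0.05, as were 841 of 16664 genes, and 6 between the WT segments, as were 809 of 16566 genes. The block gave no member an adjusted p under 0.05. Elavl3 had no value under the stricter filter in the distal and HSCR segment comparisons. Elavl4 in HSCR distal 2 to 4 rests on 12, 18 and 4 reads, which limits the ratios to it.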
